A study of Mus musculus with 40 samples.

Results

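The mitochondrial ribosomal proteins were taken as every gene of the deposited table whose symbol begins with Mrpl or Mrps and a number. They were 78 of the 12573 genes, 49 named for the large subunit (Mrpl) and 29 named for the small subunit (Mrps). Their mRNA was followed in the calf muscle gastrocnemius, which holds several fibre types, of 40 female C57BL/6J mice in 5 groups of 8, each mouse giving 1 library. Mice of the 1wk, 2wk, LT and HT groups were injected at 8 weeks of age with Lewis lung carcinoma (LLC) cells, a transplantable mouse lung tumor used as a model of cancer cachexia, and the PBS controls were injected with saline. The PBS mice were 12 weeks old at collection, the 1wk mice 9 weeks and the 2wk mice 10 weeks, so that age also differed between PBS and the early tumor groups. The LT mice, with tumors of 1.2 g or less, and the HT mice, with tumors of 2 g or more, were collected at 11 to 12 weeks of age. These last groups were formed by tumor mass after collection, and the sources used here do not give the week of each mouse. The comparisons asked how the 2 subunits behaved as tumors grew.

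Mitochondria carry their own ribosome, which translates the few proteins encoded in mitochondrial DNA, all of them core parts of the respiratory chain and ATP synthase. Its RNA comes from mitochondrial DNA, whereas its proteins are encoded in the nucleus, made on cytosolic ribosomes and imported, so that each ribosome joins products of both genomes. The small subunit reads the mRNA, and the large subunit forms the peptide bond at the inner membrane. Many of its proteins have bacterial homologues, and others are particular to mitochondria. In skeletal muscle, a tissue rich in mitochondria, this ribosome supplies the respiratory chain of the fibres. A name is not always a place in the ribosome, since Mrps30 and Mrps18a lie in the large subunit and Mrps36 is a component of the 2-oxoglutarate dehydrogenase complex.

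The DNA before the start of 5 members and the stretch between a head-to-head pair are shown because the results turn on these genes. They are the 150 bases before the RefSeq start of Mrpl34, Mrps22, Mrpl12 and Mrps24, which fell in HT muscle, and of Mrpl32, the member that rose against PBS. The last is the 41 bases between the starts of Mrpl46 and Mrps11. All are from RefSeq, build GRCm38.p6, written 5′ to 3′ on the strand named. Capitals mark the letters CCGGAAG, the core bound by ETS factors such as GABPA, and GCGCATG, the core bound by NRF1, on either strand.
Mrpl34 (chr8:71464776-71464925, plus strand): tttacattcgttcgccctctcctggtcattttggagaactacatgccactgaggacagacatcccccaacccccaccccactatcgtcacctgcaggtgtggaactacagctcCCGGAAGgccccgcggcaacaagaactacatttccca
Mrps22 (chr9:98601680-98601829, minus strand): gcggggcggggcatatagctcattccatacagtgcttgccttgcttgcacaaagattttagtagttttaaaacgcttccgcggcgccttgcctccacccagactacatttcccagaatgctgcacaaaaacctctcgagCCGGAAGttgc
Mrpl12 (chr11:120484487-120484636, plus strand): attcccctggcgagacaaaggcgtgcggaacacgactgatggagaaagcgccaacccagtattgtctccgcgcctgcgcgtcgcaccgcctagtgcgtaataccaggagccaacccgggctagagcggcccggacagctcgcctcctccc
Mrps24 (chr11:5707702-5707851, minus strand): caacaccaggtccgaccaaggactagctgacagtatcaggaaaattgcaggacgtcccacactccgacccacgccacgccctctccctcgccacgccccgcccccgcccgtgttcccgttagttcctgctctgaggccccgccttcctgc
Mrpl32 (chr13:14613038-14613187, minus strand): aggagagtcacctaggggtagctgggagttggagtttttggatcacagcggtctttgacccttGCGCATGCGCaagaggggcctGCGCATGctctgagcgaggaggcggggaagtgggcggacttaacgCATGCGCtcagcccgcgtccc
Mrpl46 and Mrps11, between their starts (chr7:78783090-78783130, plus strand): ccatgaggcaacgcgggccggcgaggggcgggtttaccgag
Mrpl34 and Mrps22 each hold the ETS core, and Mrpl32 holds the NRF1 core more than once, with overlapping copies on opposite strands. The windows of Mrpl12 and Mrps24 and the 41 bases hold neither these letters nor the other cores searched, AAGATGG (YY1) and AAGGTCA (ERR receptors). The 41 bases are only the gap between the starts. The full 150 bases before Mrps11, not printed, hold the YY1 core, and those before Mrpl46 hold none of these cores. Of the 78 members 69 had a promoter in the RefSeq table, as did 9993 genes of the deposited table. Between 250 bases before and 50 after the start, the ETS core was found in 26 member promoters (37.7%) and in 19.9% of the promoters of all genes, and the YY1 core in 13 (18.8%) and 8.36%. The NRF1 core was found in 8 member promoters (11.6%, against 7.87% of all) and the ERR core in 4 (5.8%, against 3.83%). With only the 250 bases before the start, the ETS core was in 26.1% of member promoters and 15.5% of all, and the YY1 core in 6 member promoters (8.7%) and 5.1% of all. The NRF1 core was then in 11.6% and 6.55% and the ERR core in 4.35% and 3.46%. In the longer window, the ETS core was in 13 of 29 members that fell against PBS (44.8%) and 13 of 39 not called (33.3%). The YY1 core was in 8 and 4 of these, the NRF1 core in 1 and 6 and the ERR core in 3 and 1. The printed genes were chosen by their change, and a link between a core and a change was not tested. A match of 7 letters is a description and not a bound site.

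Values are estimated read counts that the authors had divided by a size factor for each library. The estimated depth was 15.7 to 28.7 M reads in the PBS, 1wk and 2wk libraries and 3.48 to 7.76 M reads in the LT and HT libraries. HT and PBS therefore differed in depth as well as in tumor, and these cannot be told apart, whereas HT and LT were of like depth. The members were well measured in every library, with at least 33.99 reads behind the lowest value of any of them, and together they took 0.324% to 0.430% of all values. Markers of muscle fibres were present in every group (9 of 9 measured, Acta1, Ckm and Ttn among them). In bulk muscle, fewer cells of a type and less RNA per cell cannot be told apart. No source used here says that the mice of a group shared a litter or cage, and a p-value below sets a change against the spread between mice. In the main fit this spread was pooled over all 5 groups and taken as equal in each. Fits of only the 2 groups compared use the spread of those groups alone.

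Within the HT group, 3 mice stood apart in how unevenly their members differed from PBS. The SD over the 78 members of the log2 difference between a mouse and the PBS mean was 0.318 in mouse C48, 0.44 in C54 and 0.559 in C55, against 0.135 to 0.23 in the other 5 HT mice. It was 0.13 to 0.216 in LT mice and 0.0867 to 0.257 in PBS mice. These 3 mice had been singled out with earlier results of the data known, so the HT counts of members by name are given below with and without them.

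Both subunits were lower in HT muscle. The subunit value of a mouse, the log2 difference from PBS averaged over the members of a subunit, was -0.178 ± 0.0312 (SD, n = 8) for the large and -0.203 ± 0.0457 for the small subunit in HT. In HT mice it ran from -0.214 to -0.108 for the large subunit, and in PBS mice from -0.104 to 0.175. With the deposited scaling all 8 HT mice thus lay below all 8 PBS mice for the large subunit, by a narrow gap. For the small subunit the HT mice ran from -0.262 to -0.121 and the PBS mice from -0.124 to 0.198, so that the groups touched at their edges. Scaled instead to the same total in each library, the HT values were -0.103 ± 0.0717 for the large subunit (range -0.215 to -0.0123, PBS mice -0.114 to 0.136) and -0.128 ± 0.0916 for the small, and the groups overlapped. The LT mice stayed around the PBS level, at 0.00116 ± 0.0974 for the large and -0.0206 ± 0.124 for the small subunit, and spread as widely as the PBS mice. The 1wk mice were at -0.0416 and -0.0441 and the 2wk mice at -0.0221 and -0.0206 for the large and small subunit, within the PBS range in their means. With the deposited scaling an HT mouse had 53 to 72 of its 78 members below the PBS mean, with a median of 62, whereas PBS mice had 3 to 69 and LT mice 12 to 59. With the same total the counts were 38 to 70 in HT (median 51), 6 to 67 in PBS and 12 to 58 in LT. The share of all genes below the PBS mean in each mouse is not given here.

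The subunits were also compared within each mouse. The large minus the small subunit value, which does not depend on how a library is scaled, was 0.0251 ± 0.0335 in HT (range -0.0117 to 0.0876), 0.0218 ± 0.037 in LT, -0.00147 in 2wk and 0.00249 in 1wk, with an SD of 0.031 among PBS mice. By name, the HT mean differed from PBS by less than 1 SD of the PBS mice. The highest of these differences in HT, 0.0876 and 0.0496, belonged to C55 and C54. Placing Mrps30 and Mrps18a with the large subunit and leaving out Mrps36 gave 0.0484 ± 0.0524 in HT (range -0.0112 to 0.142), with an SD of 0.0255 among PBS mice, and 0.03 ± 0.0351 in LT, so that by structure the means of both HT and LT lay more than 1 SD of the PBS mice above 0. These values describe the mice and carry no test, since the members were chosen with results of these data known.

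**Figure D1:**
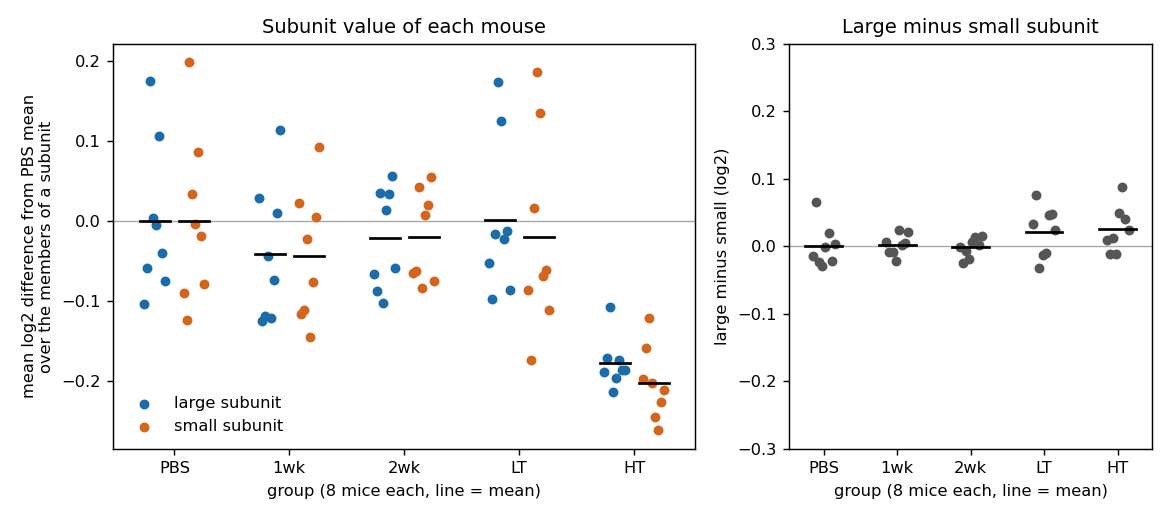
Left, mean log2 difference from PBS over the 49 large (blue) and 29 small (orange) subunit members in each mouse, by group, with the group mean as a line. Right, the large minus the small subunit value of each mouse. The 8 HT mice lie between -0.262 and -0.108 on the left, while the right panel stays between -0.0324 and 0.0876 in all 40 mice.

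Against PBS, 35 of the 78 members fell in HT muscle and 1 rose (limma on log2(value + 1), with p adjusted by the method of Benjamini and Hochberg and a threshold of 0.05). Over all 12573 genes 32.9% were called, 16.5% lower and 16.5% higher, beside 44.9% of the members lower. Of the large subunit 20 of 49 fell and 1 rose, and of the small subunit 15 of 29 fell. The median log2 fold change was -0.177 for the large and -0.199 for the small subunit, with 0.00031 as the median of all genes, and 66 of 78 members were below 0. With the same total in each library the medians were -0.102 and -0.124 (all genes 0.0746), and 22 members fell and 1 rose, where 32.3% of all genes were called, 11.3% lower. The declines were modest, from -0.67 to -0.18 on the log2 scale among members called lower. HT and PBS did not overlap in 2 members, Mrpl12 and Mrpl34, both lower, where 1.67% of all genes had no overlap in that direction. Without C48, C54 and C55, 21 members were called, all of them lower, and 18 of the 36 were among them, where 16.1% of all genes were called in the same fit. With only the HT and PBS mice in the fit 23 were called, all lower, and 19.5% of all genes.

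Mrpl12 had the smallest adjusted p of the members. It encodes a stalk protein of the large subunit to which translation factors bind and lies at chr11:120375463-120379580 on the plus strand (mm39). Its normalized value was 1632 to 2291 (median 1732) in PBS, 1446 to 1960 (median 1693) in LT and 842 to 1509 (median 1251) in HT mice. Every HT mouse was below every PBS mouse, and 7 of 8 were below every LT mouse. The HT mean, 1189 ± 227, was 64.7% of the PBS mean, a log2 fold change of -0.64 ± 0.10 (SE, adjusted p = 1.79e-05). Mrpl34, a small protein with a bacterial homologue, lies at chr8:71917570-71918397. It was 299 to 456 (median 326) in PBS and 161 to 286 (median 238) in HT, again with no overlap, and its log2 fold change was -0.60 ± 0.11 (adjusted p = 9.07e-05). Mrpl28, at chr17:26342477-26345587, was 458 to 722 (median 608) in PBS and 232 to 522 (median 442) in HT, where the lowest value was that of C55. All 8 HT mice were below the PBS mean and 4 below every PBS mouse, and the log2 fold change was -0.58 ± 0.11 (adjusted p = 0.000199). Mrpl42, of highest value among the members and particular to mitochondria, was 2380 to 3365 in PBS and 1384 to 2476 in HT (log2 fold change -0.46 ± 0.10, adjusted p = 0.000543), and 7 of 8 HT mice were below every PBS mouse.

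Further large subunit members fell by less. Mrpl45, which lies at the exit of the peptide tunnel next to the inner membrane, changed by -0.37 ± 0.10 (adjusted p = 0.00545), Mrpl19 by -0.37 ± 0.13 (adjusted p = 0.0245) and Mrpl16 by -0.36 ± 0.10 (adjusted p = 0.00483). In these the 3 uneven HT mice held the lowest values. Mrpl19 was 101 to 162 in C48, C54 and C55 and 201 to 270 in the other HT mice, beside 221 to 289 in PBS. Without the 3 mice the log2 fold change was -0.07 for Mrpl19, -0.14 for Mrpl45 and -0.18 for Mrpl16, and none of them passed the test (adjusted p = 0.688, 0.269 and 0.196). The call of Mrpl19 also ended without C54 or C55 alone (adjusted p = 0.0623 and 0.0921). Mrpl3, a core protein near the peptidyl transferase centre, changed by -0.26 ± 0.08 (adjusted p = 0.00952). Mrpl58, a peptidyl-tRNA hydrolase built into the large subunit that also rescues stalled ribosomes, changed by -0.24 ± 0.08 (adjusted p = 0.0137). With only the 2 groups in the fit and with the same total in each library, neither Mrpl3 (adjusted p = 0.0576 and 0.0948) nor Mrpl58 (adjusted p = 0.0831 and 0.114) nor Mrpl19 (adjusted p = 0.119 and 0.0838) passed the test, and weighting the libraries ended the call of Mrpl19 too (adjusted p = 0.222). Mrpl11, a protein at the base of the stalk that carries Mrpl12, did not pass the test, with 542 to 727 in PBS and 535 to 731 in HT. Its log2 fold change was 0.04, with an interval of 2 SE either side from -0.09 to 0.18. Mrpl47, of lowest value among the members, was 140 to 209 in PBS and 108 to 265 in HT (adjusted p = 0.989).

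Mrps24 had the lowest log2 fold change of the 78. It encodes the homologue of a bacterial protein at the entry of the mRNA channel and lies at chr11:5653982-5657701 on the minus strand. Its value was 400 to 802 (median 536) in PBS, 318 to 586 (median 413) in LT and 242 to 510 (median 338) in HT. In HT 7 of 8 mice were below every PBS mouse, and C48 was the exception. The log2 fold change was -0.67 ± 0.13 (adjusted p = 0.000169). Mrps22, in which variants cause respiratory chain disease in humans, lies at chr9:98470784-98483732 on the minus strand and was 236 to 316 (median 275) in PBS and 166 to 238 (median 199) in HT. Of the HT mice 7 were below every PBS mouse, and the log2 fold change was -0.45 ± 0.09 (adjusted p = 0.000197). Mrps34, particular to mitochondria, was 385 to 726 in PBS and 326 to 513 in HT (-0.50 ± 0.11, adjusted p = 0.000708). Mrps28 changed by -0.32 ± 0.07, Mrps33 by -0.35 ± 0.08, Mrps26 by -0.33 ± 0.09 and Mrps35 by -0.28 ± 0.10, with adjusted p from 0.000679 to 0.0301. Mrps12, a protein of the decoding centre, was 320 to 447 in PBS and 273 to 360 in HT (-0.25 ± 0.07, adjusted p = 0.00838). The call of Mrps35 also ended without C5, C9, C48 or C55 alone (adjusted p = 0.0688, 0.0743, 0.0897 and 0.0746). Mrps35 and Mrps12 did not pass the test without C48, C54 and C55 (adjusted p = 0.26 and 0.0842), nor did Mrps33 (adjusted p = 0.0554). With the same total in each library the calls of Mrps35 and Mrps12 ended (adjusted p = 0.102 and 0.085), as did that of Mrps35 with only the 2 groups in the fit (adjusted p = 0.115).

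**Figure D2:**
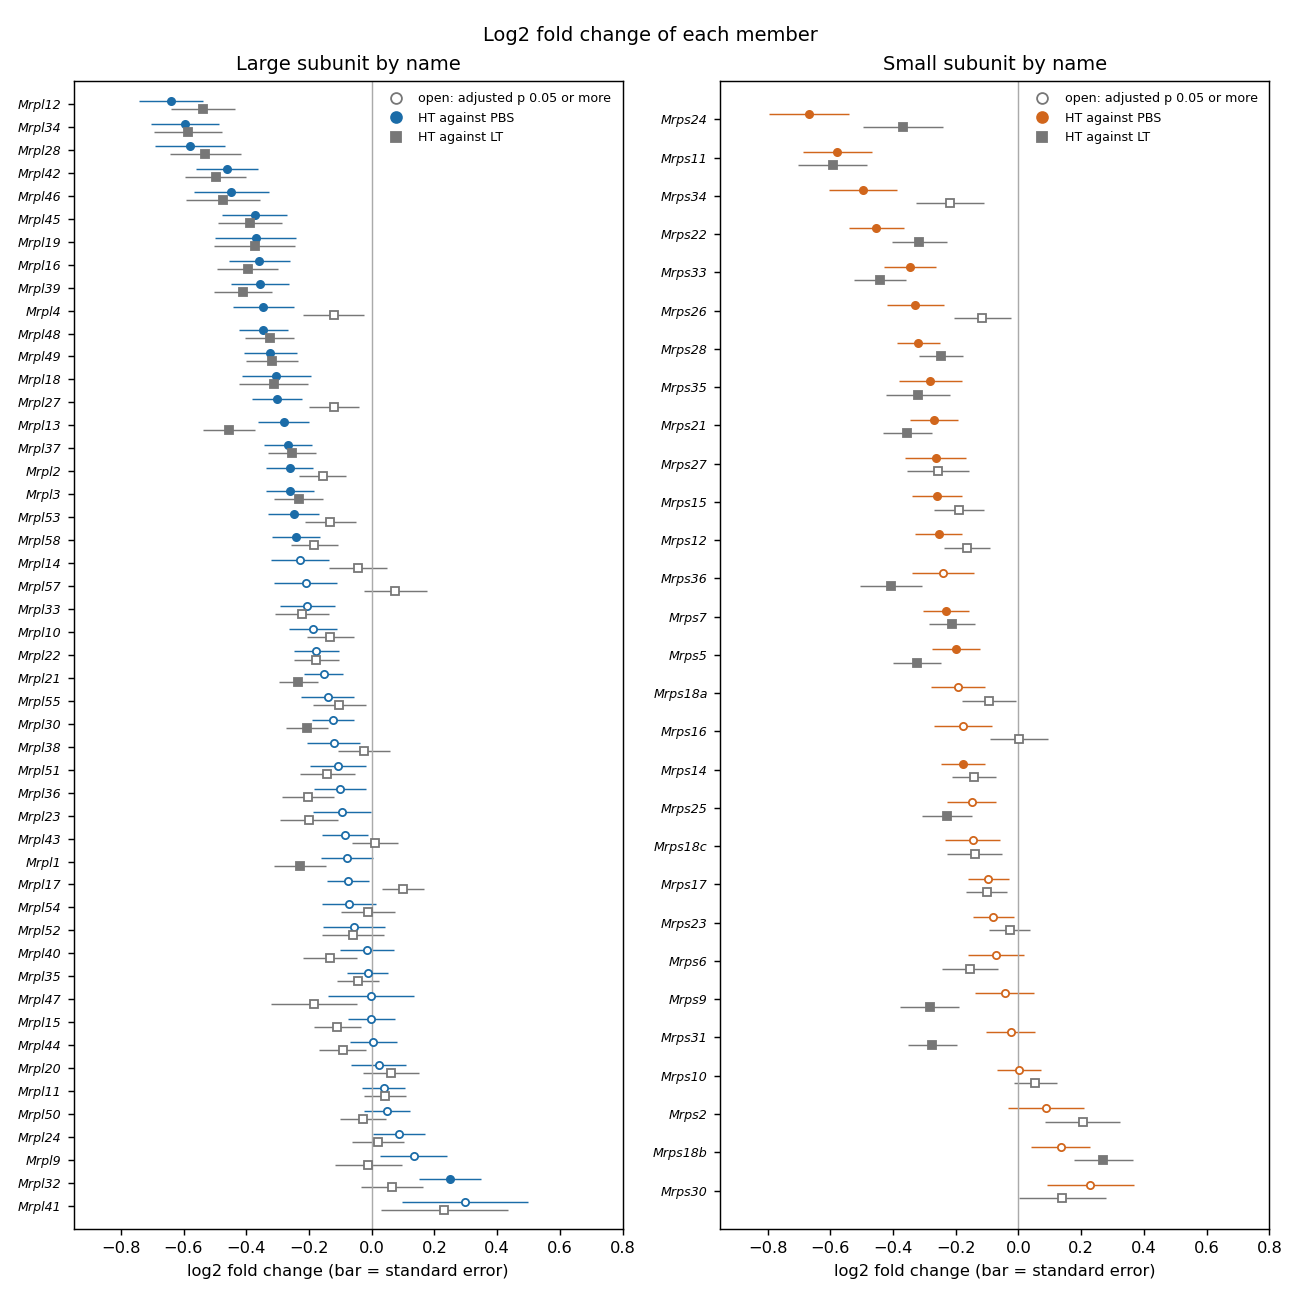
Log2 fold change of each member in HT against PBS (circles) and HT against LT (squares), with 1 standard error, in order of the change against PBS. Filled marks had an adjusted p under 0.05. Most members lie left of 0 in both comparisons, from Mrpl12 (-0.64) and Mrps24 (-0.67) at the top to Mrpl41 and Mrps30 on the right, with Mrpl32 filled on the right.

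Mrpl46 and Mrps11 belong to different subunits and start 42 bases apart on opposite strands (mm39, Mrpl46 at chr7:78425089-78432837 on the minus and Mrps11 at chr7:78432879-78442736 on the plus strand), and the 41 bases between them are printed above. Mrpl46 was 255 to 325 (median 292) in PBS, 219 to 371 (median 289) in LT and 122 to 258 (median 229) in HT. Mrps11 was 228 to 316 (median 256) in PBS, 209 to 341 (median 272) in LT and 116 to 236 (median 177) in HT. Against PBS, Mrpl46 changed by -0.45 ± 0.12 (adjusted p = 0.004) and Mrps11 by -0.58 ± 0.11 (adjusted p = 0.000173). C55 had the lowest value of both, 122 and 116. Without the 3 uneven HT mice the change of Mrpl46 was -0.26 (adjusted p = 0.0911), whereas Mrps11 stayed among the called members. In GENCODE the models of this pair overlap on opposite strands, and the strand setting of the counting is not given, so reads at the overlap may be shared. GENCODE also has Copb2 across part of Mrps22 and Ppp1r10 across part of Mrps18b on the opposite strand. Of the 78 members 23 (29.5%) had the start of another gene of the table head to head within 1000 bases, as did 12.0% of all genes.

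Against LT, mice of the same age range and of like depth, 31 members fell in HT and 1 rose, where 20.4% of all genes were called, 10.5% lower and 9.94% higher. By name 18 of 49 large and 13 of 29 small subunit members fell, with median log2 fold changes of -0.156 and -0.212 (all genes 0.0123). With the same total in each library the medians were -0.102 and -0.157 (all genes 0.0666), and 19 members fell and 1 rose, where 20.4% of all genes were called, 7.39% lower. Members that fell in both comparisons numbered 24, and the share of all genes that did so is not given here. The comparisons share the HT mice, so this overlap is no separate result, and each comparison has its own values. Mrps11 changed by -0.59 ± 0.11 (adjusted p = 0.000426), Mrpl34 by -0.59 ± 0.11 (adjusted p = 0.000383), Mrpl12 by -0.54 ± 0.10 (adjusted p = 0.000481) and Mrpl28 by -0.53 ± 0.11 (adjusted p = 0.00136). Mrpl13, a large subunit protein with a bacterial homologue, was 637 to 810 (median 678) in LT and 387 to 681 (median 517) in HT, with 7 of 8 HT mice below every LT mouse (-0.46 ± 0.08, adjusted p = 0.000322). Mrps33 was 547 to 711 in LT and 421 to 569 in HT (-0.44 ± 0.08, adjusted p = 0.000462). Mrpl42 changed by -0.50 ± 0.10, Mrpl46 by -0.47 ± 0.12, Mrpl39 by -0.41 ± 0.09 and Mrpl16 by -0.40 ± 0.10, and in the small subunit Mrps21 by -0.35 ± 0.08, Mrps5 by -0.32 ± 0.08, Mrps22 by -0.32 ± 0.09, Mrps35 by -0.32 ± 0.10 and Mrps24 by -0.37 ± 0.13 (adjusted p from 0.000681 to 0.0364). No member had HT and LT values free of overlap, where 0.811% of all genes had HT wholly below LT. Without the 3 uneven HT mice 7 members were called, all lower, where 3.18% of all genes were called in the same fit. By name 5 were of the large and 2 of the small subunit. Of these 7 members, Mrpl12, Mrpl13, Mrpl34, Mrps11 and Mrps33 were among the 32. Without C55 alone 8 small subunit members were called in place of 14, and 12.3% of all genes. Single mice also ended the calls of Mrps24 (C43, C44, C56, C54, C55, C60 or C62, adjusted p from 0.0511 to 0.107) and Mrps35 (C44, C48 or C55, adjusted p from 0.0528 to 0.0617), and that of Mrpl3, at -0.23 ± 0.08 with an adjusted p of 0.0295 (C51, C56 or C62, adjusted p from 0.0563 to 0.0645). With a weight for each library 6 members were called (2.86% of all genes), with the HT and LT mice alone in the fit 8 (4.17%) and at an adjusted p under 0.01 17 (7.96%). Of the members named here, Mrpl3, Mrpl12 (adjusted p = 0.0501), Mrpl16, Mrpl39, Mrpl46, Mrps5, Mrps21, Mrps22, Mrps24 and Mrps35 did not pass the test with weights, and of these Mrpl3, Mrpl16, Mrpl39, Mrpl46, Mrps5, Mrps22, Mrps24 and Mrps35 did not with the 2 groups alone. Mrpl3, Mrps22 and Mrps24 did not pass with the same total in each library (adjusted p = 0.131, 0.065 and 0.0881).

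**Figure D3:**
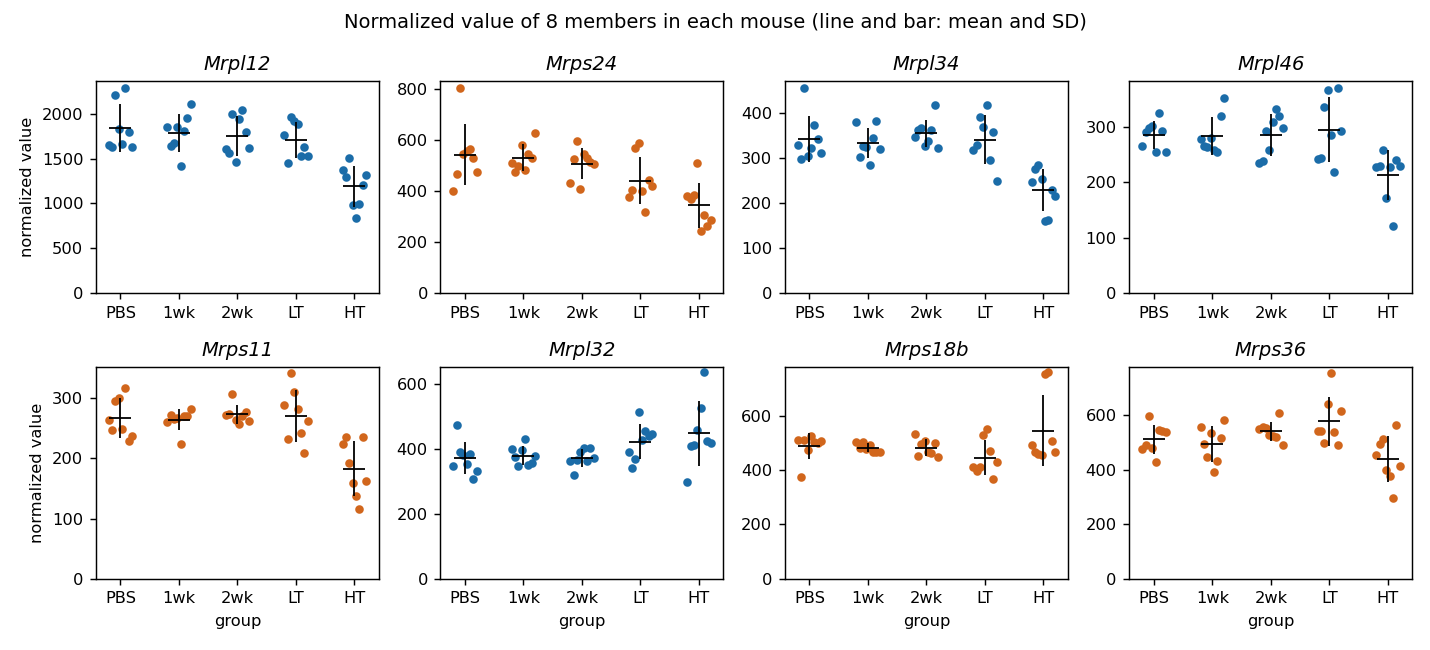
Normalized value in each mouse of 8 members, 4 of the large subunit (blue) and 4 named for the small subunit (orange), with the mean and SD of each group of 8 mice. HT mice are low for Mrpl12 (842 to 1509) and Mrps24 (242 to 510), and the highest HT values of Mrpl32 (635) and Mrps18b (762) are those of C55.

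A single member rose in each HT comparison, and in both the HT values were highest in C54 and C55. Mrpl32, a large subunit protein that the m-AAA protease trims before it joins the ribosome, lies at chr13:14784886-14787622 on the minus strand. It was 308 to 472 (median 368) in PBS, 339 to 512 (median 433) in LT and 296 to 635 (median 421) in HT, where C55, C54 and C48 had the highest values, 635, 525 and 458. Its log2 fold change was 0.25 ± 0.10 against PBS (adjusted p = 0.0473). Without those mice it was 0.08 (adjusted p = 0.617), and the call ended with weights, with the 2 groups alone and with quantile normalization (adjusted p = 0.257, 0.161 and 0.0622) and in 12 of the 16 fits that left out a single PBS or HT mouse (C2, C5, C6, C8, C9, C10, C11, C48, C54, C55, C60 or C62), with an adjusted p of 0.0509 to 0.158. Mrps18b, a small subunit protein and 1 of 3 mitochondrial relatives of a bacterial protein, was 366 to 551 (median 422) in LT and 454 to 762 (median 482) in HT. The HT value was 753 in C54, 762 in C55 and at most 509 in the other 6. Against LT it changed by 0.27 ± 0.09 (adjusted p = 0.0378) and without the 3 mice by 0.12 (adjusted p = 0.445). Leaving out C39, C42, C43, C56, C57, C54 or C55 alone also ended the call (adjusted p from 0.055 to 0.127), as did weights and the 2 groups alone (adjusted p = 0.22 and 0.21). Mrps18a, the relative that lies in the large subunit, was 538 to 802 in PBS and 502 to 743 in HT (-0.19 ± 0.09, adjusted p = 0.084), and without C4 or C55 alone it passed the test (adjusted p = 0.0255 and 0.0408), as it did with weights and with quantile normalization (adjusted p = 0.0166 and 0.0193).

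Mrps30 and Mrps36 are named for the small subunit but lie elsewhere. Mrps30 was 292 to 513 (median 369) in PBS and 302 to 810 (median 387) in HT, the highest being C48, and did not pass the test against PBS (0.23 ± 0.14, adjusted p = 0.203) or LT (0.14 ± 0.14, adjusted p = 0.494). Without C48, C54 and C55 its sign turned, to -0.09 against PBS and -0.18 against LT (adjusted p = 0.607 and 0.382). Mrps36, of the 2-oxoglutarate dehydrogenase complex, was 492 to 756 (median 542) in LT and 298 to 563 (median 434) in HT. It changed against LT by -0.41 ± 0.10 (adjusted p = 0.00416), a call that ended without C48, C54 and C55, with weights and with the 2 groups alone (adjusted p = 0.155, 0.146 and 0.0672). Against PBS it was -0.24 ± 0.10 (adjusted p = 0.057), which passed the test without C8, C38, C46 or C60 alone (adjusted p from 0.0186 to 0.0382) and with quantile normalization (adjusted p = 0.0457). Placed by structure, 20 of 51 large and 15 of 26 small subunit members fell against PBS, and 18 and 12 against LT. Of proteins with a bacterial homologue 20 of 47 (42.6%) fell against PBS and of those particular to mitochondria 15 of 31 (48.4%), beside 16.5% of all genes, with medians of -0.178 and -0.241, and the difference between the classes was not tested. Counts by structure and by homologue class without C48, C54 and C55 are not given here.

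No member was called in the early tumor groups or in LT by limma with equal weights. Of all genes 0.525% were called for 1wk against PBS, 0.0795% for 2wk and 0.636% for LT. At an unadjusted p under 0.05 3 members of the 1wk comparison, 0 of 2wk and 10 of LT were counted, beside 11.6%, 4.66% and 12.3% of all genes, so that the members lay near or below the background. With a weight for each library Mrpl16 was called lower in 1wk (5.8% of all genes), Mrps26 and Mrps34 were called lower in LT (2.29%), and 0 members were called in 2wk (1.92%). In 1wk the smallest p were those of Mrps12 (-0.18 ± 0.07, adjusted p = 0.327), Mrps18a (-0.19 ± 0.09, adjusted p = 0.392) and Mrpl16 (-0.21 ± 0.10, adjusted p = 0.392). In 2wk they were those of Mrps18c (-0.15 ± 0.09), Mrps28 (-0.12 ± 0.07) and Mrpl27 (-0.12 ± 0.08), each with an adjusted p of 1. In LT they were those of Mrps31 (0.25 ± 0.08, adjusted p = 0.147), Mrpl57 (-0.29 ± 0.10, adjusted p = 0.215) and Mrpl17 (-0.18 ± 0.07, adjusted p = 0.250). Mrpl12 was -0.04 at 1wk, -0.07 at 2wk and -0.10 for LT, and Mrps22 was 0.07, -0.01 and -0.14. The median over all members was -0.0443 for 1wk, -0.0184 for 2wk and -0.00227 for LT. Between 2wk and 1wk 0 members were called (0.0159% of all genes), with 2 at an unadjusted p under 0.05 (7.6% of all genes), Mrpl16 (0.26 ± 0.10, adjusted p = 0.568) and Mrpl28 (0.27 ± 0.11, adjusted p = 0.582). These were also the 2 called with a weight for each library (0.756% of all genes).

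Genes that work with the ribosome were followed by fixed lists, and their counts stand beside the 32.9% of all genes called against PBS (16.5% lower) and the 20.4% called against LT (10.5% lower). Of 5 ribosomal proteins with other names, Dap3, Ptcd3, Chchd1, Aurkaip1 and Gadd45gip1, all 5 fell against PBS and 4 against LT. Gadd45gip1, a large subunit protein, had the largest change (-0.47 ± 0.09, adjusted p = 0.00019 against PBS and -0.39 ± 0.09, adjusted p = 0.00298 against LT). Of 26 assembly factors 9 fell and 1 rose (Mterf3, 0.31 ± 0.11) against PBS, 38.5% in all, and Mrm1 (-0.61 ± 0.13) and Mettl15 (-0.52 ± 0.15) fell against LT, 7.69% of the list and less than the share of all genes. Mpv17l2, an assembly factor of the inner membrane, changed by -0.54 ± 0.12, and Mrm1, a methyltransferase of the large ribosomal RNA, by -0.58 ± 0.13 (adjusted p = 0.00097 and 0.00106), and both were followed by Trub2 (-0.33 ± 0.08, adjusted p = 0.00284). Of 15 translation factors measured, 6 fell and 1 rose against PBS. Lower were the elongation factors Tsfm (-0.55 ± 0.11) and Tufm (-0.32 ± 0.11), Taco1, which activates translation of a cytochrome oxidase subunit (-0.59 ± 0.15), the RNA-binding Slirp (-0.36 ± 0.09), Guf1 (-0.30 ± 0.10) and Mtfmt, which formylates the initiator tRNA (-0.29 ± 0.11). The recycling factor Mrrf was higher (0.20 ± 0.08, adjusted p = 0.039). Against LT 4 fell, Tsfm (-0.32 ± 0.11), Slirp (-0.38 ± 0.09), Taco1 (-0.56 ± 0.15) and the initiation factor Mtif2 (-0.35 ± 0.09).

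Among 9 regulators of mitochondrial gene expression the directions were mixed. Esrra, an ERR receptor, changed by -1.02 ± 0.18 against PBS (adjusted p = 6.4e-05) and by -0.70 ± 0.18 against LT (adjusted p = 0.00558). The coactivator Ppargc1a changed by -0.47 ± 0.18 and -0.50 ± 0.18 (adjusted p = 0.0411 and 0.0433), and Ppargc1b by -0.88 ± 0.33 against PBS (adjusted p = 0.0354). Yy1 rose by 0.41 ± 0.11 and 0.37 ± 0.11 (adjusted p = 0.005 and 0.0193), Gabpa by 0.32 ± 0.10 against PBS (adjusted p = 0.0111) and Nrf1 by 0.39 ± 0.10 against LT (adjusted p = 0.00651). Against LT neither Gabpa (0.15, adjusted p = 0.278) nor Ppargc1b (-0.56, adjusted p = 0.215) passed the test. Nrf1 did not pass it against PBS (0.13, adjusted p = 0.33). Yy1 was 512 to 644 in PBS and 607 to 1422 (median 687) in HT. Gabpa was 377 to 484 in PBS and 405 to 828 (median 476) in HT. Nrf1 was 184 to 236 in PBS, 131 to 206 in LT and 174 to 345 (median 218.5) in HT. Ppargc1b was 147 to 276 in PBS and 16.6 to 256 (median 168) in HT. Fits of the lists without C48, C54 and C55 are not given here. Myc was at 0.74 ± 0.29 against PBS (adjusted p = 0.04999) and did not pass the test against LT (adjusted p = 0.12). Of 9 genes of mitochondrial transcription and DNA replication, 2 fell and 2 rose against PBS, the replicative helicase Twnk (-0.27 ± 0.10), Mterf2 (-0.98 ± 0.22, adjusted p = 0.00086), Tfb2m (0.34 ± 0.10, adjusted p = 0.0112) and Mterf1a. Mterf1a rose by 0.82 ± 0.29 (adjusted p = 0.0249). Its values were low, 3.39 to 18.7 in PBS and 7.94 to 36.2 in HT. In HT libraries 1 read was worth 1.58 to 2.88, so few reads lie behind this change.

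The members lay between the subunits of complex I, which contains products of the mitochondrial ribosome, and the ribosomal proteins of the cytosol. Of 36 nuclear-encoded complex I subunits 35 fell against PBS and 34 against LT, with median log2 fold changes of -0.488 and -0.468. Ndufa1, Ndufs5 and Ndufs6 had the smallest p against PBS, with changes of -0.60 ± 0.08, -0.64 ± 0.09 and -0.56 ± 0.08. Of 73 cytosolic ribosomal proteins 9 rose and 2 fell against PBS, and Rps18 (0.32 ± 0.09) and Rpl5 (0.23 ± 0.08) rose against LT, with medians of 0.0851 and 0.0735. These were 15.1% and 2.74% of the list, below the 32.9% and 20.4% of all genes called in either direction. Rps2 (-0.56 ± 0.13) fell and Rpl5 (0.27 ± 0.08) rose against PBS. Beside these stand the medians of -0.189 and -0.179 over the 78 members, and differences between the lists carry no test.

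**Figure D4:**
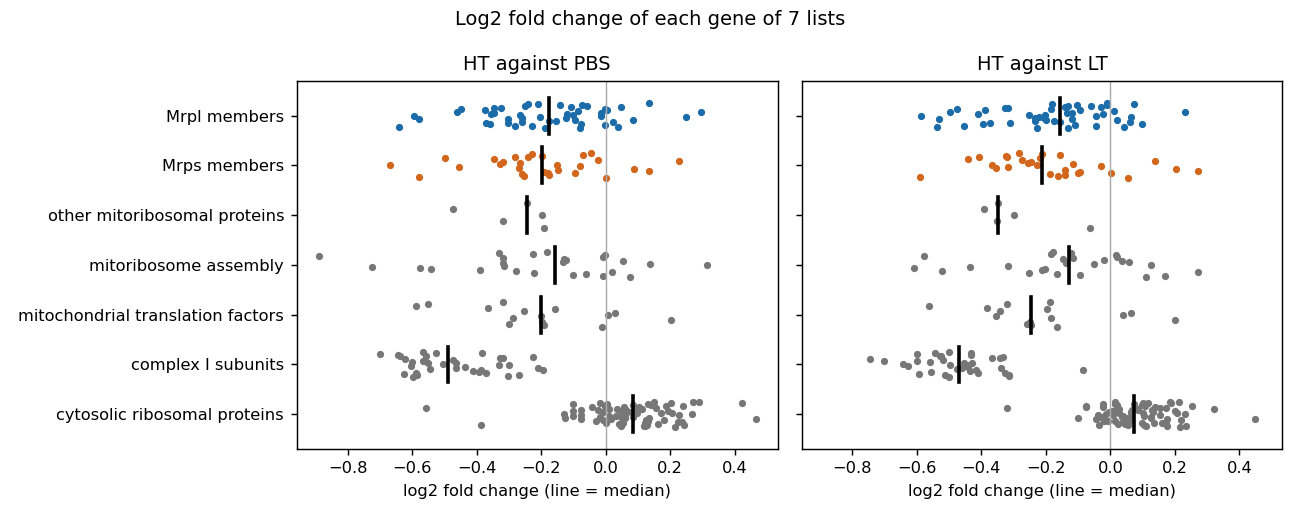
Log2 fold change of each gene in 7 lists in HT against PBS (left) and HT against LT (right), with the median of each list as a line. Complex I subunits lie lowest (medians -0.488 and -0.468), the members of both mitochondrial subunits lie between, and cytosolic ribosomal proteins lie around 0 (medians 0.0851 and 0.0735).

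Markers of blood cells moved with the HT group. The summed value of 4 neutrophil markers measured of 8 was 17.6 to 44.4 in PBS, 18.7 to 500 in LT and 565 to 2494 in HT, and S100a8 and S100a9 led them. That of 5 erythroid markers measured of 7 was 6110 to 24170 in PBS, 6589 to 37450 in LT and 28520 to 100500 in HT. Of the 6 endothelial markers 5 rose against PBS, and their sum was 1627 to 3095 in PBS, 2009 to 3247 in LT and 2999 to 3674 in HT. Macrophage markers (7 of 7 measured) summed to 845 to 2222 in PBS and 1432 to 3812 in HT, and 2 of them rose against PBS, Cd14 (0.90 ± 0.27, adjusted p = 0.00893) and Mrc1 (0.63 ± 0.21, adjusted p = 0.0212), and 0 were called by limma against LT (0 also at an unadjusted p under 0.05). Fibroblast markers (5 of 5) summed to 5374 to 10960 in PBS and 4980 to 11460 in HT. Of these Lum fell against PBS (-0.65 ± 0.25, adjusted p = 0.0446) and Pdgfra against LT (-0.36 ± 0.12, adjusted p = 0.033), with list medians of -0.647 and -0.472. Of the 9 fibre markers Mb, the oxygen store of oxidative fibres, fell against PBS (-0.88 ± 0.31, adjusted p = 0.0273) and LT (-0.96 ± 0.31, adjusted p = 0.0256), and the others did not pass the test. Of 3 T cell markers and 3 epithelial markers of tumor cells 0 were measured. Of the markers of slow fibres 0 of 6 were called by limma against PBS or LT, and 0 also at an unadjusted p under 0.05. The part of these cells in the fall of the members was not tested.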

How the data were processed

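The authors sequenced polyadenylated RNA as single reads, aligned them with STAR 2.7.8a (the submitters' notes list mm10 and mm39), assigned them to RefSeq genes in Partek and applied a minimum read number to genes. The deposited signal is an estimated count per gene and library that the authors had scaled by size factors (median ratio, DESeq2). Of 502920 values 99.6% were not whole (tolerance 1e-09), so no count test was run. Deposited fold changes and p-values of the authors' own comparisons were not used.

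All 40 libraries entered a single limma 3.58.1 fit (R 4.3.3, lmFit and eBayes with a trend) of log2(value + 1) on the 5 groups, with 6 comparisons and Benjamini-Hochberg adjustment over 12573 genes. A pseudocount of 1 slightly understates folds of low genes. Depth was read from the step between low values. Gene positions in the table matched GENCODE vM39 (99.8% of 12249 genes matched by name overlapped on the same strand). Python 3.11.15, numpy 2.4.6 and matplotlib 3.10.9 were used for lists and figures. Members, lists and tests were chosen with earlier results of these data known. Named were, in each subunit, the 8 called members of largest change in each HT comparison, called members that moved against their subunit, the 3 members of smallest p where none was called, 9 fixed members (Mrpl3, Mrpl11, Mrpl12, Mrpl58, Mrps12, Mrps18a, Mrps22, Mrps30 and Mrps36) and the members of highest and lowest value, with called genes of the smaller lists and the 3 of smallest p of the others, except a gene that is not reported here.

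Members that share reads with other genes are less certain. Another gene of the table overlapped 3 members on the same strand (Mrpl53, Mrps23 and Mrps6) and 7 members on the other strand, and GENCODE names 6 pseudogenes of members.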

Additional observations from a re-analysis of the deposited data

Results flagged for a closer look

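In 165 groups of 8 mice, covering the subunit values and the named members, 7 had a highest or lowest mouse whose gap to the next, divided by the range of the group, was above Dixon's 95% critical value. Chance gives about 1 such group in 20. In HT the large subunit value of C46 was -0.108, where the other 7 mice lay between -0.214 and -0.171, so that C46 had the mildest fall of that subunit. Mrps11 was 224 in mouse C17 of 1wk (the others 261 to 281) and 308 in C29 of 2wk (257 to 278). Mrpl32 was 319 in C28 of 2wk (362 to 403), and Mrps35 was 187 in C34 of 2wk (230 to 246). In PBS, Mrpl39 was 377 in C5 (277 to 318) and Mrps18b was 376 in C4 (473 to 526).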

How the results depend on the processing

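The alternatives were pseudocounts of 0.5 and 10, a mean value of at least 50, only the 2 groups compared in the fit, a weight for each library, the same total in each library, quantile normalization, an adjusted p under 0.01, each mouse left out in turn, the HT group without C48, C54 and C55, and subunits by structure. The number of members called in HT against PBS (36) was 23 with only the 2 groups compared, 23 with the same total (32.3% of all genes called) and 21 without the 3 mice. In HT against LT (32) it was 8 with only the 2 groups, 6 with weights, 20 with the same total (20.4% of all genes), 17 at an adjusted p under 0.01 and 7 without the 3 mice. With weights 1 member was called in 1wk, 2 in LT and 2 in 2wk against 1wk. With the same total the median of the large subunit was 0.0512 in 1wk (all genes 0.0911) and -0.108 in 2wk against 1wk (all genes -0.0992), so that it moved with the median of all genes. Leaving out single mice gave 29 to 39 members in HT against PBS (25.6% to 35.7% of all genes) and 23 to 35 in HT against LT (11.8% to 25.1%). The direction of members that did not pass the test turned in HT against PBS for Mrpl11 (-0.01415 with weights, -0.00882 with quantiles and -0.01343 without the 3 mice), Mrpl47 (0.0715 with the same total, and -0.109 to 0.0748 with single mice left out) and Mrps30 (-0.0947 without the 3 mice). In HT against LT it turned for Mrps30 (-0.0216 with weights and -0.185 without the 3 mice) and Mrpl11 (-0.00961 without the 3 mice). The cause was not tested. No paired analysis was possible because the labels give no number that ties a mouse of a group to a mouse of another. The lower depth of the LT and HT libraries limits the precision of small differences there.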
